A study of Homo sapiens and Mus musculus with 13 samples.

Results

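Nucleophosmin (Npm1) with its relatives Npm2 and Npm3, and 6 nucleolar partners, Ncl, Fbl, Nop56, Nop58, Dkc1 and Ubtf, were followed in mouse haematopoietic progenitors that carry the leukaemia-type mutant NPM1c. The 9 genes were chosen by symbol for their roles, with earlier results of these data known. Each matched a single row among the 37991 genes of the mouse tables. The cells were progenitors immortalized by HOXB8, kept in medium with stem cell factor and beta-estradiol. The tested libraries came from 3 clones with an NPM1c knock-in (clones 12, 18 and 4), each grown from a single cell, made with CRISPR/Cas9 and called NPM1ca-GFP in the study's design text. The other 2 libraries came from the parental HOXB8 line, labelled wild-type. HOXB8 immortalization and the culture medium were thus common to all 5 libraries. The labels do not state that the parental libraries are from separate cultures, so p-values measure only the spread between these libraries, which may be technical. Whether the knock-in clones keep an unedited Npm1 allele is not given in the sources used here.

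Nucleophosmin is an abundant shuttling chaperone of histones and ribosomal proteins that fills the outer, granular region of the nucleolus, where ribosomal subunits are assembled. In acute myeloid leukaemia, NPM1c mutations change the end of the protein, which creates an export signal and carries it to the cytoplasm. The partners act at successive steps of ribosome production: Ubtf opens the ribosomal RNA genes to RNA polymerase I, nucleolin (Ncl) binds the nascent precursor, and the small nucleolar ribonucleoproteins (snoRNPs) built around Fbl or Dkc1 modify its bases and riboses.

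The recovered depth was 7358340 to 12235174 reads in the clones, against 9728260 in parental replicate 1 and 99557475 in parental replicate 2. All values below are reads scaled by the authors with a size factor for each library, called normalized read counts here. A level is given per gene and not per length, so levels are compared between libraries and never between genes. Of 9 progenitor markers tested, Cd48, Myb and Ptprc were higher in the clones, Flt3 was lower and 5 did not pass (adjusted p under 0.05, limma, a threshold that 16.0% of all genes tested passed). The 5 include Kit at 5887 to 8571 in the clones, against 5263 to 5736 in the parental libraries, and Cd34 at 14851 to 17793, against 14739 to 17263. Without clone 12, or without parental replicate 2, 1 of the 9 was called. Clone numbers follow the sample titles, and the headers of the count files carry the same numbers in another order within the knock-in group.

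Among the 8 genes abundant enough to test, Npm1 and Nop56 fell in the knock-in clones, none rose, and 6 did not pass the test. Across all 13132 genes tested, 16.0% were called by limma (adjusted p under 0.05), 7.51% higher and 8.49% lower, so 2 of 8 is not far from what the whole table gave. At an unadjusted p under 0.05 the count was 0 higher and 2 lower as well, though the share of all genes at that threshold was not counted. EdgeR and DESeq2, which called 16.8% and 20.4% of all genes, also called 0 higher and 2 lower. The widest gaps were within the parental pair, where Ncl was 4.03-fold and Nop58 2.82-fold lower in replicate 2 than in replicate 1.

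Npm1, the gene targeted by the knock-in, was at 15141, 14144 and 14305 in clones 12, 18 and 4, against 25695 and 25714 in the parental libraries. The clones lay within 1.07-fold of each other and all below both parental values, which were almost equal to each other. The log2 fold change was -0.82 (95% interval -0.98 to -0.67, adjusted p = 0.000533, limma), and it stayed between -0.85 and -0.80 when each of the 5 libraries was left out in turn. A fall at least as large was seen in 6.59% of all genes tested. These levels rest on 6973 to 12299 reads per clone, and on 16538 and 168436 parental reads, so counting error is small. Bulk RNA cannot tell fewer cells of a type from less RNA per cell. The files hold a single value per gene. Transcripts of the knock-in allele are therefore not separated from any others, and reads can be shared with Npm1 pseudogenes.

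**Figure D1:**
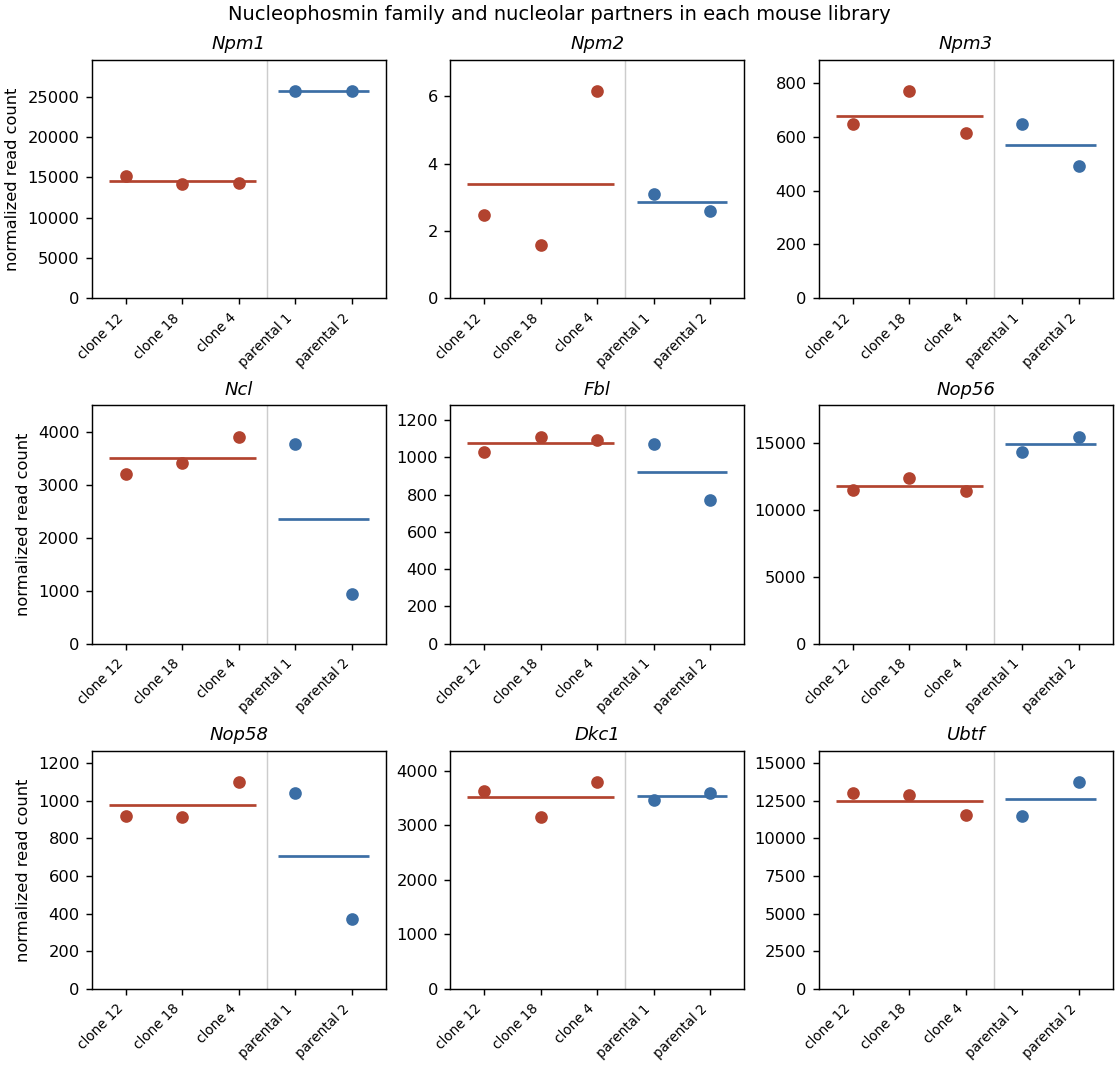
Normalized read count (vertical axes, each from 0) of the 9 genes in knock-in clones 12, 18 and 4 (left of the grey line) and parental replicates 1 and 2 (right). Points are libraries and horizontal lines group means. Npm1 and Nop56 are below both parental libraries in each clone, while Ncl and Nop58 are low in parental replicate 2 alone.

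Npm3, a short relative that binds Npm1, was at 646.3, 770.4 and 613.4 in the clones, against 646.3 and 490.8 in the parental libraries. The groups overlapped and the difference did not pass (log2 0.26, 95% interval -0.14 to 0.65, adjusted p = 0.338, limma). Its pseudogene Npm3-ps1 was at 27.1, 6.34 and 20.5 in the clones, against 29.5 and 25.5 in the parental libraries (adjusted p = 0.401, limma). Reads of Npm3 and of this copy may not be fully separated.

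Npm2, a histone chaperone best known from the egg, was barely read. It had 2, 1 and 3 reads in clones 12, 18 and 4, and 2 and 17 in the parental libraries, which is below the minimum for testing. Summed over the group this was 0.207 CPM in the clones (exact 95% Poisson interval 0.0759 to 0.450) and 0.174 in the parental libraries (0.105 to 0.271), intervals that cover counting error only. No difference was detectable at this depth. Of the family, the fall in the clones was therefore measured for Npm1, and a fall of Npm3 by more than 0.14 on the log2 scale lay outside its interval.

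Nop56, a core scaffold protein of the box C/D snoRNP, was at 11503, 12369 and 11421 in the clones, against 14350 and 15499 in the parental libraries. All clones were below both parental libraries. The log2 fold change was -0.34 (95% interval -0.52 to -0.17, adjusted p = 0.0221, limma; adjusted p = 0.0236 with edgeR). The call was lost without clone 12 (adjusted p = 0.0930) and without parental replicate 2 (adjusted p = 0.143, limma), with a log2 fold change of -0.40 to -0.29 over the 5 fits that left out a library. A fit without 1 parental library sets the clones against a single library that is assumed to vary as the clones do, so its p holds nothing of the spread between the parental libraries. The 2 groups failed to overlap in 2 of the 8 tested genes, Npm1 and Nop56, both with the clones lower, while 50.2% of all genes tested had groups that did not overlap and 25.8% had the clones lower. Without parental replicate 2, 1 of the 8 genes was called, Npm1, and 7.47% of all genes.

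The partners of Nop56 in the same particle, Fbl and Nop58, did not pass, and their difference from Nop56 was not tested. Fibrillarin (Fbl), the enzyme that methylates ribose in ribosomal RNA, was at 1028, 1113 and 1093 in the clones, against 1070 and 771.7 in the parental libraries. Parental replicate 1 lay among the clones and replicate 2 below them, and the gene did not pass (log2 0.25, 95% interval -0.11 to 0.60, adjusted p = 0.313, limma). Nop58, the other scaffold protein, was at 920.8, 913.0 and 1100 in the clones, against 1041 and 369.1 in the parental libraries. Replicate 1 was again inside the range of the clones, and replicate 2 was 2.82-fold below replicate 1. Its log2 fold change of 0.65 did not pass (adjusted p = 0.372, limma), and it was 1.40 without parental replicate 1 (adjusted p = 0.00369) and -0.10 without replicate 2 (adjusted p = 0.766, limma). The gap between the parental replicates does not enter these 2 p-values.

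Nucleolin (Ncl), which binds the ribosomal RNA precursor and promotes its first processing steps, had the widest spread. It was at 3198, 3414 and 3906 in the clones, against 3763 and 934.6 in the parental libraries, a 4.03-fold gap between the parental replicates. The log2 fold change of 0.90 (95% interval -0.70 to 2.50) did not pass (adjusted p = 0.382, limma). Without parental replicate 1 it was 1.90 (adjusted p = 0.00111) and without parental replicate 2 it was -0.11 (adjusted p = 0.698, limma), so its direction rests on which parental library is used. Each of these p-values takes its spread from the clones and leaves out the 4.03-fold gap. A gap of more than 1.5-fold, with parental replicate 2 the lower, was seen in 2 of the 8 tested genes, Ncl and Nop58, and in 7.81% of all genes tested. This library is also the deepest. With it thinned to 9579357 reads, the log2 fold change of Ncl was 0.85 and that of Nop58 0.68. Thinning at random keeps the expected share of reads of each gene, so it cannot show how depth bears on these values. How the depth, layout, mapping or preparation of parental replicate 2 bears on them was not tested.

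Dyskerin (Dkc1), the pseudouridine synthase of box H/ACA snoRNPs and a component of telomerase, was at 3629, 3158 and 3795 in the clones, against 3463 and 3593 in the parental libraries. The parental values lay inside the range of the clones (log2 -0.0043, 95% interval -0.24 to 0.23, adjusted p = 0.981, limma). Ubtf, the activator of ribosomal RNA gene transcription, was at 13033, 12874 and 11531 in the clones, against 11468 and 13757 in the parental libraries, again overlapping (log2 -0.011, 95% interval -0.25 to 0.22, adjusted p = 0.952, limma). For both genes the intervals leave room for differences of up to about 0.25 in either direction on the log2 scale, and a change as large as that of Npm1 lies outside them.

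**Figure D2:**
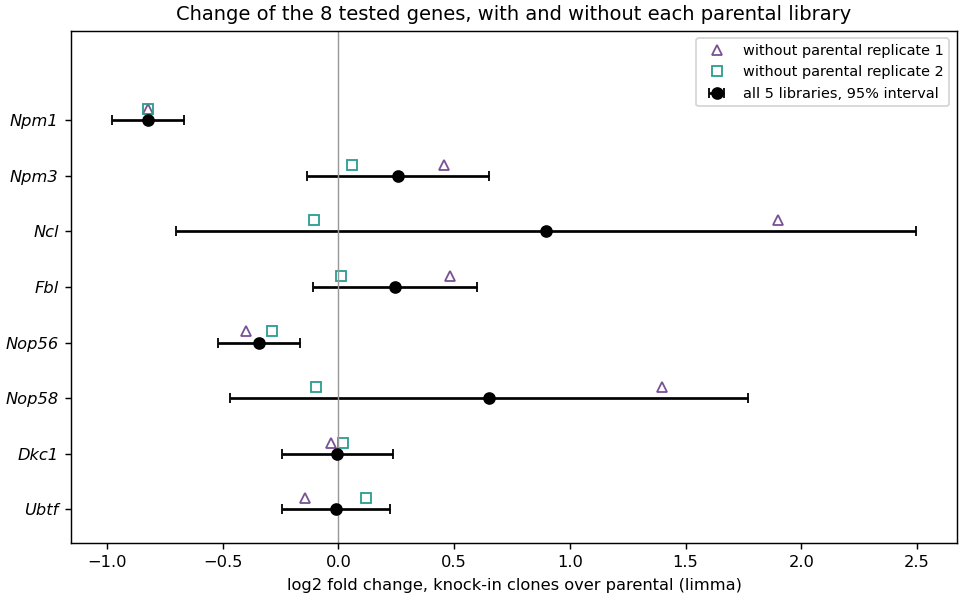
Log2 fold change, knock-in clones over parental libraries (horizontal axis), of the 8 tested genes, with black points and 95% intervals from all 5 libraries and open symbols from fits without parental replicate 1 (triangles) or replicate 2 (squares). Npm1 stays at -0.82 in all 3 fits, while Ncl moves between 1.90 and -0.11.

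Dividing Npm1 by a partner within each library removes the library's own scaling. The Npm1 to Dkc1 ratio was 4.17, 4.48 and 3.77 in the clones, against 7.42 and 7.16 in the parental libraries, 1.76-fold lower in the clones. The Npm1 to Ubtf ratio was 1.16, 1.10 and 1.24 in the clones, against 2.24 and 1.87. The Npm1 to Nop56 ratio was 1.32, 1.14 and 1.25 in the clones, against 1.79 and 1.66, 1.40-fold lower in the clones. Npm1 was thus lower relative to Nop56 too, although Nop56 itself fell. In all 7 ratios each clone was below both parental libraries, and the size ran from 1.40-fold (Nop56) to 3.30-fold (Ncl, whose parental ratios were 6.83 and 27.5). Npm1 alone had this order, so any partner that changes little keeps it. The order of the 7 ratios thus restates the fall of Npm1, and the share of all genes that would give it was not counted. An exact two-sided permutation test gave p = 0.2 for each of the 7 ratios (0.2 after Benjamini-Hochberg adjustment), the smallest p that 3 against 2 libraries allows, so none could pass.

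**Figure D3:**
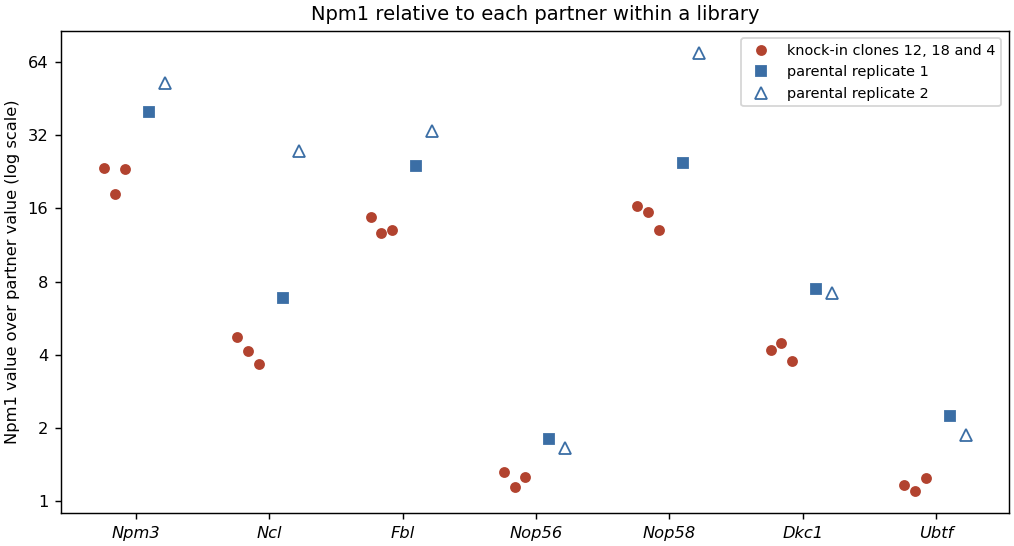
Npm1 value divided by the value of each partner in the same library (vertical axis, log scale), for knock-in clones 12, 18 and 4 (circles) and parental replicates 1 (squares) and 2 (triangles). The clones lie below both parental libraries for each of the 7 partners, and the parental replicates are far apart for Ncl and Nop58.

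The genes whose profile over the 5 libraries was closest to that of Npm1 were looked up among 9912 genes with a mean of at least 100. Closeness was the root mean square distance between centred log2 values. The 5 closest were Smad1 (0.0402), a transducer of bone morphogenetic protein signals, Snx18 (0.0477), a membrane trafficking protein, Gm14681 (0.0485), Prpf3 (0.0537), a splicing factor, and Gm7289 (0.0572). Of the nucleolar partners, Nop56 was nearest at 0.247, rank 1118, and Ncl farthest at 1.06, rank 9628. Smad1 rested on 70, 47 and 39 reads in clones 12, 18 and 4, and Gm7289 on 64, 49 and 38. Counting error is not small at such reads, so it can move these distances and their order. The ranks describe 5 libraries and carry no test. Whether reads of Gm14681 or Gm7289 are shared with Npm1 was not tested.

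Beyond the 9 genes, the machinery around them was counted in lists of the same steps of ribosome production. Beside these counts stand the shares of all genes tested that limma called, 7.51% higher and 8.49% lower. Of 13 genes tested for the box C/D snoRNP and its assembly, Nop56 was the one that fell and none rose. Of 10 for the box H/ACA snoRNP, Naf1, an assembly factor, fell and Tert, the telomerase reverse transcriptase, rose. Tert, at 0 and 1.53 in parental replicates 1 and 2, reached the minimum mean of 10 only through the clones. Its call as higher was thus favoured by that filter. Naf1 was at 440.7, 458.1 and 437.0 in the clones, against 644.8 and 656.3 (adjusted p = 0.0237, limma), but its call was lost in 4 of the 5 fits that left out a library (adjusted p = 0.0504 to 0.0902), while its log2 fold change stayed between -0.57 and -0.53 in all 5, against -0.55 from all libraries. Tert had 22, 6 and 9 reads in clones 12, 18 and 4, against 0 and 10 in the far deeper parental replicate 2 (adjusted p = 0.0234, limma), and it did not pass without clone 12 (adjusted p = 0.109) or without parental replicate 1 (adjusted p = 0.0821, limma).

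None of 20 genes tested for RNA polymerase I and its factors was called by limma or edgeR, which called 16.0% and 16.8% of all genes. DESeq2 called 1, beside 20.4% of all genes. With limma 3 were higher and 0 lower at an unadjusted p under 0.05, a threshold whose share of all genes was not counted. Of 42 in the small subunit processome, Wdr3, a subunit of this complex, fell to 946.7, 963.8 and 927.3 in the clones, against 1507 and 1383 (log2 -0.61, adjusted p = 0.00883, limma). Of 47 in large subunit assembly, Mdn1, the giant ATPase that strips assembly factors from the pre-ribosome, rose to 1748, 1455 and 1350, against 814.1 and 830.8 (log2 0.87, adjusted p = 0.00552, limma). The median log2 fold changes of these lists were 0.16, 0.083 and 0.082, beside 0.011 over all genes tested, and 3, 9 and 9 of their genes had such a gap, with parental replicate 2 the lower by more than 1.5-fold. Without parental replicate 2 these medians were 0.083, -0.028 and -0.0080. Without parental replicate 1 these medians were 0.24, 0.085 and 0.17. Over all genes tested the median was -0.010 without parental replicate 2 and -0.0083 without parental replicate 1.

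In the list of nucleolar chaperones and scaffold proteins, 6 of 19 fell, 13 did not pass and 0 rose. Of all genes tested, 8.49% were called lower and 7.51% higher. At an unadjusted p under 0.05 with limma, 1 of the 19 was higher and 7 lower. The share of all genes at this looser threshold was not counted, so these 2 numbers have no background beside them. DESeq2 called 7 in all, beside 20.4% of all genes. Most of the 6 are histone chaperones or chromatin proteins that work across the nucleus. Anp32e, which removes the histone variant H2A.Z, was at 9552, 9780 and 7921 in the clones, against 21230 and 22042 (log2 -1.26, adjusted p = 0.00053, limma). Hmgb1, an abundant chromatin protein, was at 14925, 14693 and 13835, against 19375 and 20990, and Anp32a, an acidic histone chaperone, at 5094, 4838 and 5422, against 7167 and 7637. Their groups did not overlap (adjusted p = 0.00599 and 0.00678, limma). Nap1l1 and Set, both histone chaperones, completed the 6 with Npm1, but Set lost its call in 4 of the 5 fits that left out a library (adjusted p = 0.0942 to 0.182) and Nap1l1 in 3 (adjusted p = 0.0599 to 0.116, limma). Over the 5 fits the log2 fold change was -0.32 to -0.25 for Set and -0.49 to -0.31 for Nap1l1. The nucleolar GTPase Gnl3 and the helicase Ddx21 did not pass (adjusted p = 0.351 and 0.244, limma), and both were, like Ncl, low in parental replicate 2, 2.43-fold and 2.22-fold below replicate 1.

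**Figure D4:**
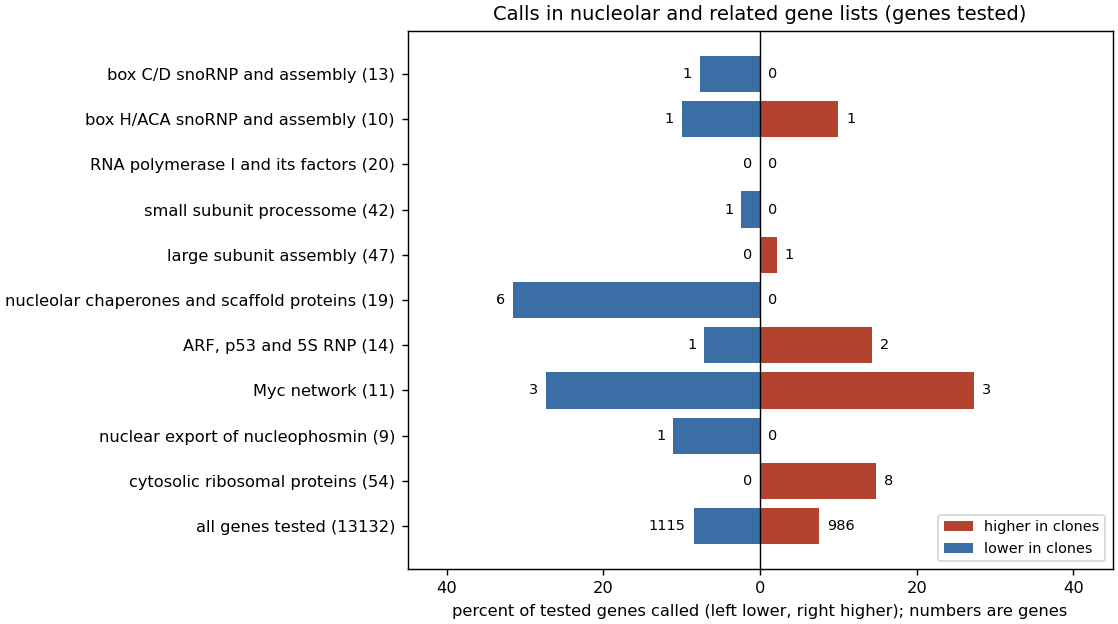
Percent of tested genes called by limma in each list, higher in knock-in clones to the right and lower to the left, with the number of genes at each bar and the genes tested in brackets. The bottom bar gives all 13132 genes tested, of which 986 were higher and 1115 lower.

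Npm1 also binds the tumour suppressor ARF, a product of Cdkn2a that activates p53 by holding back Mdm2. Cdkn2a rose to 1460, 1195 and 1631 in the clones, against 34.2 and 49.0 in the parental libraries (33.8-fold on the log2(value + 1) scale, log2 5.08, SE 0.209, adjusted p = 4.87e-05, limma), and it was called in each fit that left out a library. The single value does not separate ARF from p16, the other product of this gene. Trp53 and Mdm2 did not pass (adjusted p = 0.393 and 0.551, limma). Trp53 was at 5649, 5667 and 5014 in the clones, against 5519 and 6489 in the parental libraries, and Mdm2 at 1651, 1507 and 2203 in the clones, against 1501 and 1662 in the parental libraries. Cdkn1a, a p53 target that blocks the cell cycle, was at 568.8, 534.2 and 621.6, against 407.1 and 331.1 (adjusted p = 0.0275), a call lost in 4 of the 5 fits that left out a library (adjusted p = 0.0502 to 0.123, limma) with a log2 fold change of 0.49 to 0.79 over the 5. Fbxw7, the ubiquitin ligase subunit for Myc whose nucleolar form Npm1 helps to stabilize, was at 380.4, 440.7 and 459.5, against 655.7 and 721.7 (adjusted p = 0.0173), and did not pass without clone 12 or parental replicate 2 (adjusted p = 0.0693 and 0.0832, limma), with a log2 fold change of -0.76 to -0.61 over the 5 fits. In the whole list of 14 tested ARF, p53 and 5S RNP genes 2 rose, 1 fell and 11 did not pass. Of all genes tested, 7.51% were called higher and 8.49% lower. Without clone 12, 1 of the 14 was called.

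Xpo1, the receptor that exports NPM1c from the nucleus, was at 5791, 5340 and 5354 in the clones, against 7262 and 8114 in the parental libraries (log2 -0.48, adjusted p = 0.0107, limma), and did not pass without parental replicate 2 (adjusted p = 0.0744, limma), with a log2 fold change of -0.56 to -0.40 over the 5 fits. It was the only gene called among 9 of the export list, beside 16.0% of all genes tested. Myc, the driver of ribosome production, was at 10171, 10695 and 9063 in the clones, against 10062 and 10195 in the parental libraries (log2 -0.03, 95% interval -0.23 to 0.18, adjusted p = 0.875, limma). Other genes of its network moved both ways, with 3 higher, 3 lower and 5 not passing of 11 tested, beside 16.0% called of all genes. The calls numbered 3 in place of 6 without clone 12, and also without parental replicate 2. Mycn, its paralog, was at 731.3, 491.4 and 687.2 in the clones, against 293.6 and 298.0. Mxd4, a repressor that competes for the shared partner Max, was at 1318, 1259 and 1649, against 755.1 and 594.3. Mxi1, another such repressor, was at 342.2, 370.9 and 439.0, against 725.6 and 747.6 (adjusted p = 0.0101, 0.00565 and 0.00685, limma), and Mlx, a related dimerization partner, did not keep its call without clone 12 or parental replicate 2 (adjusted p = 0.0653 and 0.0777, limma).

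**Figure D5:**
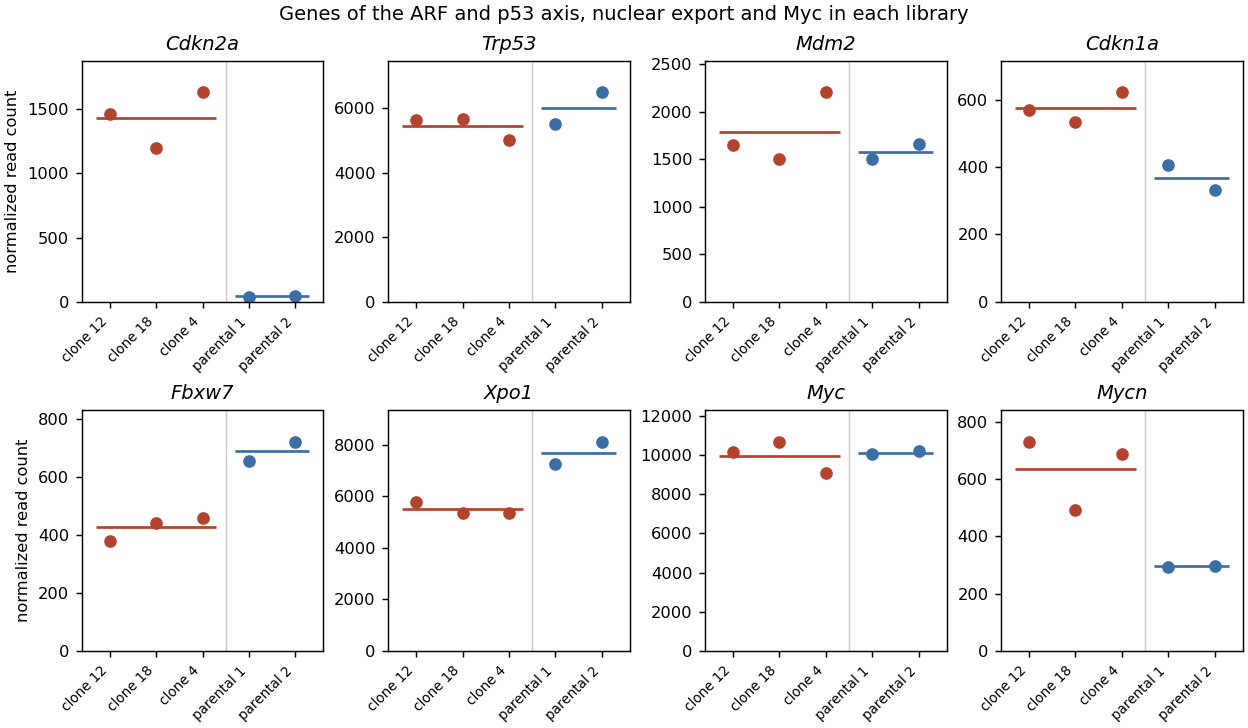
Normalized read count (vertical axes, each from 0) of 8 genes linked to nucleophosmin in knock-in clones 12, 18 and 4 (left of the grey line) and parental replicates 1 and 2 (right). Points are libraries and horizontal lines group means. Cdkn2a stands at 1195 to 1631 in the clones, against 34.2 and 49.0 in the parental libraries, while the groups overlap for Trp53, Mdm2 and Myc.

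Markers of other lineages moved with the same comparison, in which 7.51% of all genes were called higher and 8.49% lower. In the mast cell and basophil list 4 of 6 tested genes were higher in the clones. Its summed level was 5944 to 8842 in the clones and 1303 to 3527 in the parental libraries. Parental replicate 2 was more than 1.5-fold the lower in 2 of the 6 and the higher in 1. Fcer1a and Cma1 had no read in the parental libraries. A gene without parental reads can reach the minimum mean of 10 only through the clones, which favours calls as higher. In the B cell list 3 of 6 tested rows were lower, a count of 1 without parental replicate 2, with sums of 2338 to 3083 in the clones and 5039 to 5269 in the parental libraries, and Ms4a1 at 0 in all 5. In the erythroid list 2 of 9 rows were tested, Hbb-b1 and Hbb-b2, and both were higher. The whole list summed to 58.6 to 105 in the clones and 3.11 to 8.70 in the parental libraries. Both genes therefore reached the minimum mean of 10 only through the clones, so their count was largely set by that filter. Hba-a1 and Slc4a1 were at 0 in all 5. In the stromal and endothelial list 1 of 3 tested genes was higher, Pecam1, an adhesion molecule that blood cells also carry. That list summed to 7533 to 9240 in the clones and 3387 to 3604 in the parental libraries, with Cdh5 and Col3a1 at 0 in all 5. In the T and NK cell list the 1 gene tested did not pass, with sums of 65.6 to 170 in the clones and 129 to 131 in the parental libraries, and Cd3e at 0 in all 5. The part of these shifts in the values of Npm1 and its partners was not tested.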

How the data were processed

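RNeasy micro columns were used for RNA and NEBNext Ultra II for the mouse libraries, per the labels' protocols. STAR 2.6.1, RSEM, DESeq2 and the builds hg19 and mm9 are named in the submitters' processing notes, with no role or order. The authors deposited 1 normalized value (signal) per gene and mouse library, read counts divided by a size factor, as the values show: 100% of values above 0 were whole multiples of the library's smallest value, within 0.01. The strand setting was not given in the sources used here, nor was the annotation release. The 8 human libraries were not used here.

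The 5 libraries entered limma 3.58.1 (R 4.3.3; trend, robust) on log2(value + 1), for the 13132 of 37991 genes whose mean reached 10, with Benjamini-Hochberg adjustment over all of them. On this scale the fold of a gene with few reads is understated. Recovered reads were tested with edgeR 4.0.16 and DESeq2 1.42.0 as alternatives, beside other pseudocounts, minimums, scalings, thinning of the deepest library and leaving out each library. The methods were tested on simulated data. No replicates were duplicates within sampling noise: chi-square per degree of freedom was 6.23 to 11.4 between clones and 29.6 between parental libraries. The genes and lists were chosen with earlier results of these data known. Named list genes are up to 4 called genes with the smallest p per list, and others of the ARF, Myc and export lists. Nap1l1 and Set were named beyond this rule, to complete the called genes of the chaperone list. Kit, Cd34, Gnl3, Ddx21, Rpl4 and the markers named at 0 were chosen after their values were seen.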

Additional observations from a re-analysis of the deposited data

How the results depend on the processing

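Npm1 kept its direction and call in each of the 14 alternatives run. When each library was left out in turn, the genes called numbered 981 (without parental replicate 2) to 2117, and 1015 without clone 12. The called genes among the 8 tested numbered 1 to 4: Nop56 was lost without clone 12 or parental replicate 2, and Ncl and Nop58 were gained without parental replicate 1. In the 6 nucleolar lists, 6 to 29 genes were called, against 11 from all libraries, with 29 reached without parental replicate 1 and 6 without clone 12. These lists, which can share genes, held 13, 10, 20, 42, 47 and 19 tested genes. Of all genes tested, 16.0% were called from all libraries and 7.73% without clone 12. The 29 come from a fit with a single parental library, whose p-values hold nothing of the spread between the parental libraries. The log2 fold changes ranged from -0.11 to 1.90 for Ncl, from -0.10 to 1.40 for Nop58, from -0.059 to 0.073 for Dkc1 and from -0.14 to 0.12 for Ubtf. Changes near 0 turned sign with library totals as the scaling (Dkc1 0.0074, Ubtf 0.00035), with edgeR (Dkc1 0.0021) and with DESeq2 (Dkc1 0.0011). The cause was not tested. Scaling by library totals or TMM moved the median of all genes to 0.023 or 0.014. No paired analysis was possible because the clone numbers 12, 18 and 4 and the parental numbers 1 and 2 are not shared.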

Other observations

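The cytosolic ribosomal proteins are the parts from which the nucleolus assembles ribosomal subunits. Of their 54 genes tested, 8 rose, beside 7.51% of all genes tested, none fell by the test and 46 did not pass. Their median log2 fold change was 0.22, beside 0.011 over all genes. At an unadjusted p under 0.05 with limma, 25 were higher and 0 lower. The share of all genes at that looser threshold was not counted, and 7.51% is not its background. Of the 54, 51 had a log2 fold change above 0, as did 6711 of all 13132 genes tested. Rps28 was at 19698, 18267 and 17772 in the clones, against 12543 and 14435 in the parental libraries, and Rps14 at 31615, 27446 and 26571, against 20189 and 21439 (adjusted p = 0.0124 and 0.0144, limma), and each lost its call in 2 of the 5 fits that left out a library. The calls in the list numbered 1 without clone 12, 4 without clone 18, 15 without clone 4 and 1 without parental replicate 2, and DESeq2 called 13. Reads of these genes can be shared with their many pseudogenes. Rpl4 was 6.83-fold lower in parental replicate 2 than in replicate 1, a wider gap than that of Ncl.

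The small nucleolar RNAs that lie in introns of Ncl, Nop56, Nop58 and Dkc1 were barely read. Of 12 looked for, 7 had a row, and their summed level was at most 2.46 in the clones and 1.55 in the parental libraries.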
